A study of Ursus arctos with 12 samples.

Results

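The clock output factors are 8 transcription regulators that carry the daily rhythm of the circadian clock to other genes. They were taken from the count table by gene symbol, DBP, TEF, HLF, NFIL3, CIART, BHLHE40, BHLHE41 and RORA, and all 8 of them were found among its 30249 genes. Each was listed once under its own symbol, and all 8 passed the filter of 30 reads summed over the 12 libraries, as 17290 genes did.

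The libraries came from vastus lateralis, a thigh muscle, of 6 free-ranging brown bears (Ursus arctos) aged 2 to 3 years. Each bear was biopsied in winter, during hibernation, and again in summer, during its active period, and each biopsy gave 1 library of polyadenylated RNA. Capture and anesthesia were common to both seasons, and no other treatment is given. The hour at which a biopsy was taken is not given in the sources used here, so seasonal and daily differences in these genes cannot be told apart.

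In the circadian clock, CLOCK and ARNTL (BMAL1) bind E-box sequences and switch on their own repressors, the PER and CRY proteins, which closes a daily loop. The same E-boxes drive DBP, TEF and HLF, the PAR bZIP activators, which bind D-box sequences, while NFIL3 (E4BP4) represses through those D-boxes. CIART, BHLHE40 (DEC1) and BHLHE41 (DEC2) repress CLOCK and ARNTL activity, and RORA is a nuclear receptor that activates ARNTL through the element at which NR1D1 and NR1D2 (REV-ERB) repress it. In skeletal muscle the clock is known to time fuel use, and PAR bZIP factors are among its strongest rhythmic transcripts.

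Between 16742406 and 32140160 reads per library were counted on genes. Winter and summer separated on the first principal component of all tested genes, which held 41.5% of the variance, and the winter library of bear 1509 stood apart on the second component (98.63 against −29.4 to 8.16 for the other libraries). Markers of muscle fibers dominated each library, with 7 genes summing to 108000 to 180000 CPM (read counts scaled to a common library size) in summer and 111000 to 146000 in winter. The 5 endothelial markers summed to 577 to 916 CPM in summer and 381 to 449 in winter (4 of 5 lower). The 5 fibroblast markers summed to 3060 to 7900 against 228 to 1280 CPM (3 of 5 lower), the 5 smooth muscle markers to 397 to 513 against 170 to 280 CPM (2 of 5 lower) and the 5 macrophage markers to 69.1 to 115 against 37.6 to 70.8 CPM (3 of 5 lower). The adipocyte markers overlapped between seasons (297 to 1380 and 216 to 459 CPM, 1 of 5 higher and 1 lower), as did the lymphocyte markers (7.11 to 13.2 and 4.73 to 10.2 CPM, 3 of 5 lower) and the 2 erythroid markers tested (at most 2.48 CPM in any library). The part of these shifts in the results below was not tested. In bulk muscle RNA, fewer cells of a type and less RNA per cell cannot be told apart.

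For the members themselves, 1 summer library stood apart, that of bear 1305, and the change of each member is therefore given with and without it. It was singled out by the values of these same genes, so adjusted p values without it are descriptions and not separate support. In this library DBP, CIART, TEF, BHLHE40 and BHLHE41 were at the lowest of the 6 summer levels, and NFIL3 was at the highest. Its depth was 27283155 reads, the highest in summer. Its muscle fiber (137000 CPM), endothelial (664 CPM) and fibroblast (7280 CPM) marker sums lay inside the range of the other summer libraries, whereas its smooth muscle sum (397 CPM) was the lowest and its macrophage sum (115 CPM) the highest in summer.

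Of the 8 clock output factors, RORA was higher in winter and DBP, HLF and BHLHE40 were lower, while TEF, NFIL3, CIART and BHLHE41 did not pass the test. The test was edgeR's quasi-likelihood test of winter against summer with Benjamini-Hochberg adjustment over all tested genes, with season as the only term, and a call needed an adjusted p under 0.05. Adjusted p values of the members and lists come from this fit unless other fits are named. Differences are log2 fold changes of winter over summer, with their standard error (SE). These 4 of 8 calls stand beside 39.5% of all genes tested, 19.6% called higher and 19.9% called lower, so the members were called about as often as other muscle transcripts. With library totals in place of TMM scaling, 2706 genes were higher and 3789 lower, against 3386 and 3445, and the members stayed at 1 and 3. HLF and RORA moved the same way in all 6 bears, 2 of 8 members, as did 37.4% of all genes. The median log2 fold change of the 8 was −0.18, against −0.00 over all genes. Only DBP and RORA also passed stricter limits (adjusted p under 0.01, fold change over 1.3 or under 0.77), which 24.0% of all genes passed. Without the winter library of bear 1509 the same 4 members were called. With bears as replicate blocks 3 members were called, BHLHE40 being lost (adjusted p = 0.0506), beside 40.8% of all genes. Leaving out any of bears 1316, 1317, 1511 or 1512 left 2 members called, DBP and RORA. Levels are given as TMM-scaled CPM, and log2 CPM adds a prior count of 2.

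**Figure D1:**
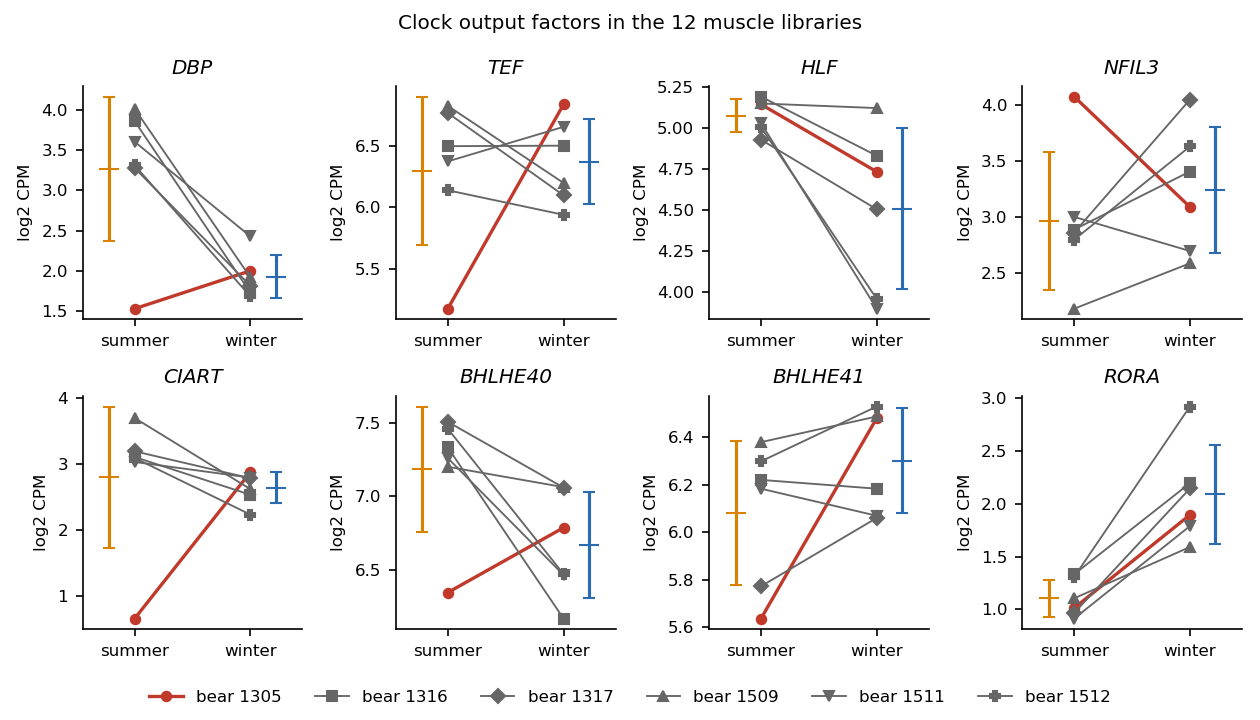
Level of each clock output factor in log2 CPM in summer and winter, with 1 line per bear and, beside the points, the mean and SD of the 6 bears of each season. Bear 1305 (red) was higher in winter for DBP, CIART and BHLHE40, where the other 5 bears were lower, whereas RORA was higher and HLF lower in 6 of 6 bears.

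DBP, the PAR bZIP activator with the strongest daily rhythm in most tissues, showed the largest change of the 8. In summer it was counted at 2.81 CPM in bear 1305, 9.60 in bear 1317, 9.82 in bear 1512, 12.1 in bear 1511, 14.4 in bear 1316 and 16.0 in bear 1509. In winter the 6 libraries lay between 3.13 and 5.29 CPM, with a median of 3.57. All 6 winter libraries therefore lay below 5 of the 6 summer libraries, and only the summer library of bear 1305 fell beneath them. DBP decreased to 0.351 of its summer level, a log2 difference of −1.51 (SE 0.31, adjusted p = 0.00185), and was lower in 5 of 6 bears. Single bears ranged from −2.13 to 0.47. Without the summer library of bear 1305 the log2 fold change was −1.73 (adjusted p = 6.12e-05). The call held in each of the 16 alternative fits, with adjusted p from 1.3e-05 to 0.0135.

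HLF, the second PAR bZIP activator, behaved differently from DBP between bears. Its 6 summer libraries lay close together, from 30.4 to 36.4 CPM with a median of 33.9. Its winter libraries spread from 14.8 and 15.4 CPM in bears 1511 and 1512 through 22.6, 26.5 and 28.3 CPM in bears 1317, 1305 and 1316 to 34.7 CPM in bear 1509. Thus 5 of 6 winter libraries were below every summer library, and bear 1509 hardly differed between its seasons (−0.03 on the log2 scale). The log2 difference was −0.51 (SE 0.18, adjusted p = 0.0407), and HLF was lower in 6 of 6 bears. The call was lost without bear 1305 (adjusted p = 0.0774), 1316 (0.0652), 1317 (0.0818), 1511 (0.0903) or 1512 (0.0994) and without the summer library of bear 1305 alone (0.0631). In the fit with bears as replicate blocks HLF stayed called, at −0.57 (adjusted p = 0.0125). It also stayed called without bear 1509 (−0.62, adjusted p = 0.0154). Without the winter library of that bear alone, left out after the data were seen, HLF was at −0.64 (adjusted p = 0.00704).

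TEF, the third PAR bZIP activator and the one with the most reads of the 3 (995 to 2789 per library), differed between the seasons in opposite directions in different bears. Its summer and winter levels were 36.2 and 114 CPM in bear 1305, 82.8 and 100 in bear 1511 and 90.1 and 90.4 in bear 1316. They were 109 and 68.4 CPM in bear 1317, 113 and 73.3 in bear 1509 and 70.4 and 61.3 in bear 1512. The seasons overlapped almost fully, and the log2 difference was 0.02 (SE 0.23, adjusted p = 0.954). With library totals in place of TMM scaling it was −0.07, and without the summer library of bear 1305 it was −0.15 (adjusted p = 0.526).

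The log2 ratio of DBP reads to TEF reads within a library, examined after the values were seen, was lower in winter in 6 of 6 bears, bear 1305 included. It ran from −3.65 to −2.64 in summer and from −4.83 to −4.22 in winter, with no overlap. The within-bear differences, winter minus summer, ran from −2.13 to −0.79 and stood at −1.18 in bear 1305. That bear had the lowest summer levels of both genes, and in winter the highest level of TEF (114 CPM) beside a DBP level of 3.92 CPM. Of single genes, 17.3% did not overlap between seasons and 37.4% moved the same way in all 6 bears. No such share was computed for ratios, and the ratio was not tested. The log2 fold change was −1.51 for DBP and 0.02 for TEF, so the ratio is no separate support for a fall of DBP.

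NFIL3, the repressor that competes with DBP, TEF and HLF at D-boxes, was counted at 4.43 to 7.90 CPM in the summer libraries of 5 bears and at 16.8 CPM in that of bear 1305. In winter it lay at 5.90, 6.38, 8.41, 10.5, 12.3 and 16.4 CPM in bears 1509, 1511, 1305, 1316, 1512 and 1317. The winter values thus lay inside the summer range, and 4 of 6 bears were higher in winter. The log2 difference was 0.25 (SE 0.31, adjusted p = 0.548), and 0.55 (adjusted p = 0.109) without the summer library of bear 1305. No alternative fit called NFIL3 (adjusted p from 0.109 to 0.983 over the 16).

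The log2 ratio of DBP reads to NFIL3 reads, activator to repressor, was lower in winter than in summer in 5 of 6 bears. The differences were −2.65 in bears 1316 and 1317, −2.50 in bear 1509, −2.46 in bear 1512 and −0.87 in bear 1511. In bear 1305 the difference was 1.46, from a summer ratio of −2.54, the lowest of the 12 libraries, and a winter ratio of −1.09. For HLF and NFIL3 it was lower in 5 of 6 bears too, and for TEF and NFIL3 in 4 of 6. The log2 ratio of RORA reads to NR1D1 reads was lower in 2 of 6 bears and higher in 4. These ratios were examined without a test, and their sign says nothing of which protein was more abundant.

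**Figure D2:**
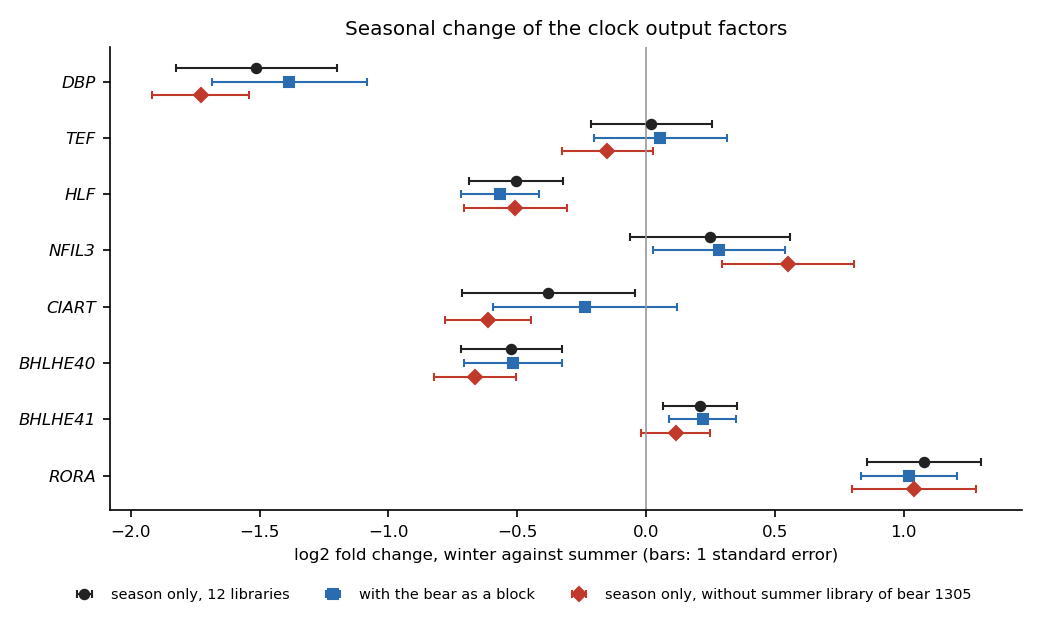
Log2 fold change of winter against summer for each clock output factor, with bars of 1 standard error, from edgeR with season as the only term, with bears as replicate blocks, and without the summer library of bear 1305. DBP (−1.51) and RORA (1.08) lay farthest from 0 in each fit, and CIART and NFIL3 shifted most when that library was left out.

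CIART (CHRONO), a repressor of CLOCK and ARNTL, had the widest summer spread of the 8. In bear 1305 it was at 1.49 CPM in summer, with 41 reads, and at 8.10, 8.45, 8.54, 9.08 and 12.9 CPM in bears 1511, 1512, 1316, 1317 and 1509. In winter it stood at 4.62 to 7.27 CPM in the 6 bears. The winter libraries lay entirely between the summer library of bear 1305 and the other 5 summer libraries. Over all bears the log2 difference was −0.38 (SE 0.33, adjusted p = 0.389). Without the summer library of bear 1305 it was −0.61 and CIART was called lower (adjusted p = 0.0122), as it was with both libraries of that bear left out (−0.66, adjusted p = 0.0152). That library was singled out after its values were seen, so these calls are not separate support for a fall. CIART was lower in winter in 5 of 6 bears and 2.22 higher on the log2 scale in bear 1305.

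BHLHE40, a bHLH-Orange repressor that binds E-boxes, was at 81.3 CPM in summer in bear 1305 and at 147 to 182 CPM in the other 5 bears. In winter it was counted at 71.9 CPM in bear 1316, 88.3 in bear 1511, 88.7 in bear 1512, 110 in bear 1305 and 133 in bears 1317 and 1509. Its winter libraries were therefore all below the summer libraries of those 5 bears. The log2 difference was −0.52 (SE 0.20, adjusted p = 0.0461), and BHLHE40 was lower in 5 of 6 bears. In the fit with bears as replicate blocks the adjusted p was 0.0506, and it was 0.0526 in limma voom. Without bear 1316, 1317, 1511 or 1512 it was 0.143, 0.0667, 0.121 and 0.157, whereas without the summer library of bear 1305 it was 0.00605, at a log2 fold change of −0.66.

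BHLHE41, its close relative, did not follow it. BHLHE41 ran from 49.7 to 83.2 CPM in summer (median 73.6) and from 66.7 to 92.3 CPM in winter (median 80.9), with overlapping seasons. The log2 difference was 0.21 (SE 0.14, adjusted p = 0.26), with 4 of 6 bears higher in winter. Without the summer library of bear 1305 it was 0.12 (adjusted p = 0.526). The log2 ratio of BHLHE40 reads to BHLHE41 reads, examined after the values were seen and without a test, was lower in winter in 6 of 6 bears. The differences were −0.25 in bear 1509, −0.40 in bear 1305, −0.68 in bear 1511, −0.73 in bear 1317, −1.12 in bear 1316 and −1.22 in bear 1512. The seasons still overlapped in this ratio, at 0.71 to 1.73 in summer and −0.06 to 1.00 in winter.

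RORA, the activating nuclear receptor of the ARNTL promoter, was the only member called higher and the only one whose seasons did not overlap, as was found for 17.3% of all genes. It had few reads, 43 to 230 per library. In summer it was counted at 1.80 to 2.43 CPM with a median of 2.00, and in winter at 2.92 CPM in bear 1509, 3.37 in bear 1511, 3.63 in bear 1305, 4.34 in bear 1317, 4.49 in bear 1316 and 7.49 in bear 1512. RORA rose 2.11-fold, a log2 difference of 1.08 (SE 0.22, adjusted p = 0.00173). Each of the 6 bears was higher in winter, by 0.49 to 1.62. Without bear 1512, whose winter library was the highest, it was 0.90 (adjusted p = 0.00353). The summer library of bear 1305, at 1.93 CPM, did not stand apart for RORA, and without it the difference was 1.04 (adjusted p = 0.0049). The call held in each of the 16 alternative fits (adjusted p at most 0.0096).

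The spread between bears differed from gene to gene and between seasons. On the log2 CPM scale the SD of CIART was 1.08 in summer and 0.24 in winter (n = 6 bears each), that of DBP 0.90 and 0.27, and that of TEF 0.60 and 0.35. Without bear 1305 the summer SDs were 0.27, 0.33 and 0.28, so 1 library gave most of the summer spread of these 3 genes. For HLF and RORA the order was the other way round, with SDs of 0.10 and 0.18 in summer and 0.49 and 0.47 in winter. For NFIL3 the SD was 0.62 in summer and 0.56 in winter, and 0.33 in summer without bear 1305. The difference in spread between seasons was not tested.

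**Figure D3:**
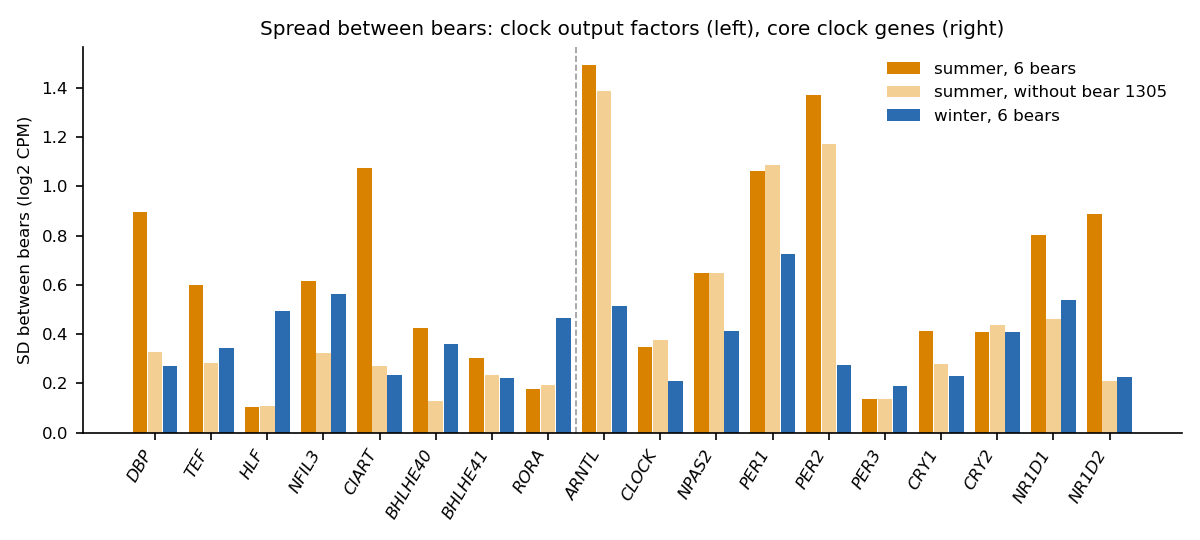
SD between bears of log2 CPM in summer with 6 bears, in summer without bear 1305 and in winter with 6 bears, for the 8 clock output factors (left) and 10 core clock genes (right). Leaving out bear 1305 lowered the summer bar of CIART from 1.08 to 0.27 and that of NR1D2 from 0.89 to 0.21, but not that of ARNTL (1.49 and 1.39) or PER2 (1.37 and 1.17).

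The members were related to each other within each season, because the seasons separate the libraries. In summer, DBP, TEF and CIART ran together and NFIL3 ran against them across the 6 bears. TEF and CIART had a Pearson r of 0.95 (exact permutation p = 0.00417, adjusted p = 0.194) and a Spearman rho of 0.94 (exact permutation p = 0.0167, adjusted p = 0.467). NFIL3 and CIART had r = −0.96 (exact permutation p = 0.00694, adjusted p = 0.194) and rho = −0.83 (exact permutation p = 0.0583, adjusted p = 0.467). DBP and CIART had r = 0.97 (exact permutation p = 0.025, adjusted p = 0.233), with rho = 0.60 (exact permutation p = 0.242, adjusted p = 0.793).

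Of the 56 tests of 28 pairs in 2 seasons, 9 had an unadjusted p below 0.05 by Pearson's r, all of them in summer, and 2 by Spearman's rho. Without bear 1305 the first count was 1. None passed in the exact two-sided permutation test after adjustment, by r (0) or rho (0). For r the smallest p that 6 libraries allow is 0.00139, and for rho it is larger. Leaving out the 2 summer libraries farthest from the median of the first gene of each pair, those of bears 1305 and 1509, took r of DBP and CIART to −0.44, of DBP and TEF to −0.01 and of TEF and NFIL3 to 0.17. Without bear 1305 alone those pairs stood, in that order, at 0.60, 0.41 and −0.55, and without bear 1509 alone at 0.96, 0.90 and −0.91. Leaving out the extremes of the first gene also narrows its range, so r over 4 libraries cannot show what these relations rest on. TEF and CIART remained at 0.72 and NFIL3 and CIART at −0.55 over the 4 bears other than 1305 and 1509. Without bear 1305 alone, TEF and CIART stood at 0.71 and NFIL3 and CIART at −0.98.

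**Figure D4:**
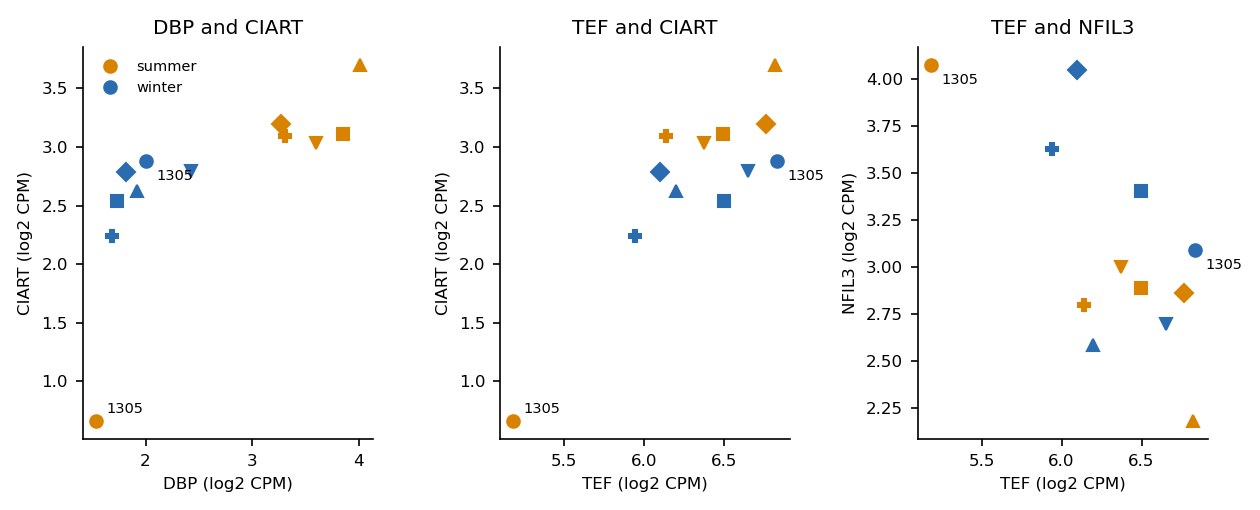
Log2 CPM of CIART against DBP, of CIART against TEF and of NFIL3 against TEF in the 12 libraries, with summer in orange, winter in blue and 1 marker shape per bear. Among the summer libraries, that of bear 1305 lies alone at the low end of DBP, TEF and CIART, and at the top for NFIL3. For DBP it lies near the winter libraries.

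In winter, DBP and CIART had r = 0.62 (exact permutation p = 0.193, adjusted p = 0.569) and rho = 0.89 (exact permutation p = 0.0333, adjusted p = 0.467), and r = 0.69 without bears 1511 and 1512. TEF and CIART had r = 0.68 (exact permutation p = 0.126, adjusted p = 0.487) and rho = 0.77 (exact permutation p = 0.103, adjusted p = 0.64), but r = −0.05 without bears 1305 and 1512. HLF, although of the same family, had r = −0.03 with DBP in summer (exact permutation p = 0.988, adjusted p = 0.988, rho = 0.60) and −0.33 in winter (exact permutation p = 0.558, adjusted p = 0.869, rho = −0.14). In summer it stood at 0.94 over the 4 bears other than 1305 and 1509. Over the 28 pairs of winter-minus-summer differences, 4 had an unadjusted p below 0.05 by r (1 without bear 1305) and 0 passed in the exact permutation test after adjustment. The difference of DBP and that of CIART had r = 0.96 (exact permutation p = 0.0167, adjusted p = 0.233) and rho = 0.83 (exact permutation p = 0.0583, adjusted p = 0.734), and r = 0.95 without bears 1305 and 1316. The differences of TEF and NFIL3 had r = −0.90 (exact permutation p = 0.0111, adjusted p = 0.233) and rho = −0.83 (exact permutation p = 0.0583, adjusted p = 0.734), and r = −0.56 without bears 1305 and 1317.

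The genes most like each member were sought over the 12 libraries with each season's mean subtracted, among 10346 genes with a symbol and a mean of at least 1 log2 CPM. These r values are descriptions from few libraries and carry no test. The gene nearest to DBP was CIART (r = 0.94) and the gene nearest to CIART was DBP, followed by DCAF4 for DBP (0.91) and MESP1 for CIART (0.90). Without the summer library of bear 1305, r of DBP and CIART was 0.61 and that of CIART and MESP1 0.14. TEF was nearest to STK35 (0.89) and TSPAN14 (0.88), HLF to DENND6A (0.88) and DYNC1I1 (0.86), and NFIL3 to EXOG (0.94) and MED19 (0.84). BHLHE40 was nearest to TRMT5 (0.83) and MYO16 (0.82), BHLHE41 to VPS13A (0.86) and SRGN (0.84), and RORA to ZNF19 (0.87) and STRAP (0.86). No 2 members other than DBP and CIART named each other.

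Among the 17 core clock genes listed, 16 were tested, and 2 were higher and 2 lower in winter (25.0%, against 39.5% of all genes), with a median log2 fold change of 0.08. With library totals 1 was higher and 3 lower. CRY2, a repressor of CLOCK and ARNTL, rose from a median of 40.9 CPM (30.6 to 62.6) to 93.3 CPM (50.7 to 109), a log2 difference of 0.98 (SE 0.21, adjusted p = 0.00212) and higher in 6 of 6 bears. TIMELESS fell by 0.77 (adjusted p = 0.00705) and CSNK1D, a kinase of PER proteins, fell by 0.31 (adjusted p = 0.0232), both lower in 6 of 6. The call of CSNK1D was lost when bear 1305 (adjusted p = 0.0858), 1316 (0.0946), 1317 (0.062) or 1509 (0.0544) was left out.

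The summer library of bear 1305 also lay low for the repressors that share E-boxes with DBP, at 9.87 CPM for NR1D1 and 45.9 CPM for NR1D2, where the other 5 summer libraries lay at 22.7 to 43.2 and 161 to 232 CPM. ARNTL, the target of RORA, ran from 1.24 to 17.4 CPM in summer and from 8.0 to 18.3 CPM in winter. It was higher in winter in 5 of 6 bears and was not called (log2 fold change 0.82, adjusted p = 0.235), but the fit with bears as replicate blocks called it (1.29, adjusted p = 0.0122). Without the summer library of bear 1305 ARNTL was at 1.18 (adjusted p = 0.0949). NR1D1 was at a log2 fold change of 0.12 (adjusted p = 0.792) and −0.08 without the summer library of bear 1305, and PER2 at −0.31 (adjusted p = 0.602), −0.54 without that library and 0.05 with bears as replicate blocks.

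Of 16 genes listed as rhythmic in many tissues or in muscle, or as targets of PAR bZIP factors, 15 were tested. Among those, 4 were higher and 4 lower (53.3%, against 39.5% of all genes), with a median log2 fold change of −0.29. Without bear 1512 the numbers were 4 and 7. ALAS1, the first enzyme of heme synthesis, fell by 1.82 (SE 0.17, adjusted p = 7.52e-06), from 128 to 242 CPM in summer to 42.4 to 74.3 CPM in winter. TCAP, the titin cap of the Z-disc, fell by 1.58 (adjusted p = 8.78e-05), and KLF15, a regulator of amino acid and lipid use, fell by 1.34 (adjusted p = 0.00394). PDXK, the pyridoxal kinase known as a PAR bZIP target, fell by 0.54 (adjusted p = 0.00417), and these 4 genes were lower in 6 of 6 bears. PDK4, which restrains pyruvate use, rose from 18.9 to 296 CPM in summer to 504 to 750 CPM in winter, a log2 difference of 2.38 (SE 0.57, adjusted p = 0.00454). LONRF3 rose by 0.94 (adjusted p = 0.00112), UCP3, a mitochondrial carrier, by 0.92 (adjusted p = 0.00587) and HERPUD1, of the endoplasmic reticulum, by 0.68 (adjusted p = 0.000376). Each of these 4 was higher in 6 of 6 bears, where 37.4% of all genes moved the same way in all 6.

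Relatives of the members were compared with them, 11 genes of the ROR, C/EBP and bHLH-Orange families. Of these relatives, 3 were higher and 2 lower (45.5%, against 39.5% of all genes), with a median log2 fold change of 0.28. RORB, with a log2 fold change of −0.02 (adjusted p = 0.983), had at most 8 reads in any library. HES6, with only 6 to 89 reads per library, rose by 2.1 (adjusted p = 0.00104). It lay at 0.235 to 0.716 CPM in summer and 0.722 to 3.23 CPM in winter. HEY1 fell by 0.95 (adjusted p = 0.0021), and both genes moved the same way in 6 of 6 bears. CEBPG rose by 0.64 (adjusted p = 0.021) and HEYL fell by 0.49 (adjusted p = 0.0181), both in 5 of 6 bears. Library totals ended the call of CEBPG (adjusted p = 0.0527), as did leaving out bear 1305 (0.0598), 1316 (0.0641), 1317 (0.0581) or 1512 (0.09), and HEYL was not called without bear 1316 (0.077) or 1317 (0.0579).

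**Figure D5:**
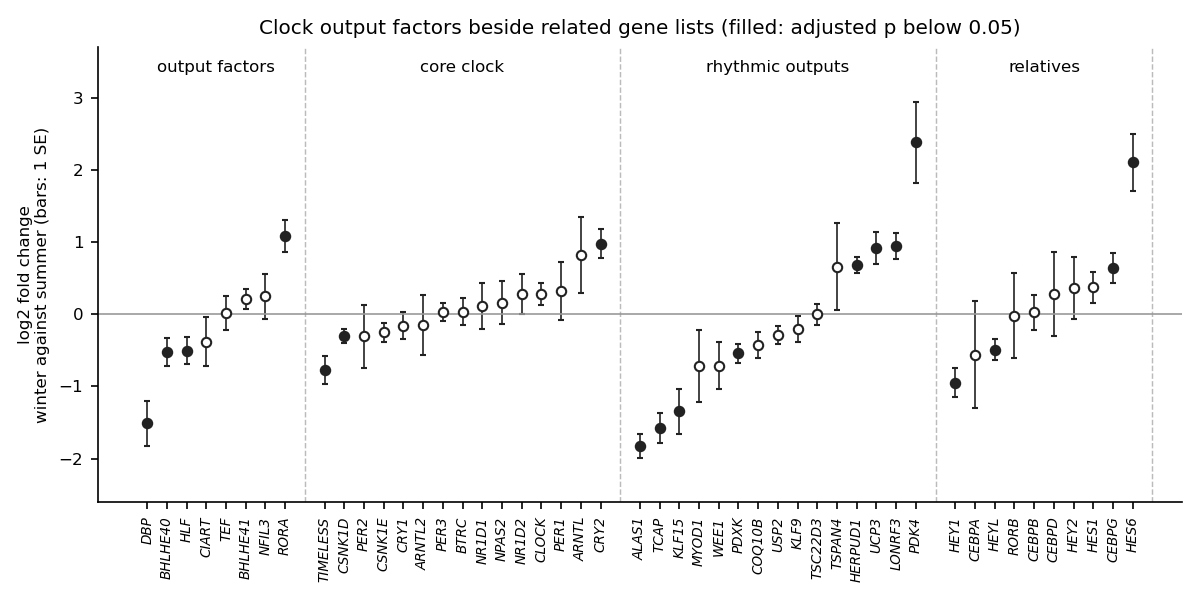
Log2 fold change of winter against summer with bars of 1 standard error for the clock output factors, 15 core clock genes, 15 rhythmic output genes and 10 relatives, ordered by value within each list. Filled points had an adjusted p below 0.05, and PDK4 (2.38), HES6 (2.1), ALAS1 (−1.82) and TCAP (−1.58) lay farther from 0 than DBP (−1.51). HES6 had only 6 to 89 reads per library.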

How the data were processed

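Muscle RNA of 6 bears was measured in winter and summer (12 libraries). The authors' stranded mRNA libraries were sequenced from 1 end over 50 bases and mapped to ASM358476v1 by TopHat2 2.1.1. Alignments with more than 3 mismatches were discarded, and reads were counted per gene by strand with featureCounts 1.6.2. The deposited values are raw counts, neither normalized nor filtered. Genes under 30 reads over the 12 libraries (0.019% of reads) were not tested. TMM scaling was used, and the counts were fitted with R 4.3.3 and edgeR 4.0.16 (glmQLFit, glmQLFTest), with season as the only term. Standard errors are the log2 fold change divided by the root of the F statistic. Alternatives used limma 3.58.1 and DESeq2 1.42.0. The same bears were sampled in both seasons, by the study's methods. Deviations from season means correlated at 0.09 to 0.34 between libraries of 1 bear and at a median of −0.06 between bears. Correlations of log2 CPM used exact permutation. No library was a copy of another of its season (lowest chi-square per gene 35.8).

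In simulated counts of 17290 genes for winter against summer in 6 bears, 200 genes were changed and libraries were drawn without pairing by bear. There edgeR called 65% of the 2-fold and 90% of the 4-fold changes set, besides 5 unchanged genes. In the real counts 39.5% of genes were called, so these shares need not hold for them. The members and lists were chosen with earlier results of these data known. CSNK1E and TSPAN4 of the lists, and the muscle marker MYH7, were found by gene ID in the RefSeq table of UrsArc2.0, while FBXL21, POR and the erythroid marker HBB were not matched and are not analysed here. Named genes were the 8 members, up to 4 called genes in each direction of each list, ARNTL, NR1D1 and PER2, and the 2 genes most like each member; other core clock genes and RORB were named after their values were seen. Some genes counted in the lists are not reported by name or drawn here. The winter library of bear 1509 and the summer library of bear 1305 were left out singly after the data were seen. No p adjusted over the lists alone was used.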

Additional observations from a re-analysis of the deposited data

Results flagged for a closer look

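In each season the library with the largest gap to its nearest neighbor was compared with Dixon's 95% critical value for 6 samples, over 56 groups of 28 named genes, where chance flags about 1 group in 20. It was exceeded in 5 groups, 3 of them among the 16 groups of clock output factors. All 3 were the summer library of bear 1305. DBP was at 1.53 log2 CPM there and at 3.28 to 4.01 in the other 5 summer libraries, CIART at 0.66 against 3.03 to 3.7, and BHLHE40 at 6.35 against 7.20 to 7.51. The cause was not tested.

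Of the other genes, TCAP in winter was at 10.02 log2 CPM in bear 1511 and at 9.09 to 9.43 in the other bears. PDXK in summer was at 4.55 log2 CPM in bear 1512 and at 4.86 to 5.03 in the others.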

How the results depend on the processing

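With the bear as a replicate block, 3 members were called, BHLHE40 being lost (adjusted p = 0.0506), and ARNTL was added. Among the other members and the named genes of the lists it changed no call, and it called 7055 of all genes. At an adjusted p below 0.01 with the limits on fold change, 2 members and 4154 of all genes (24.0%) passed. In the lists, 2 core clock genes, 8 rhythmic output genes and 3 relatives passed. With a bear or library left out, 2 to 4 members, 2 to 4 core clock genes, 8 to 11 rhythmic output genes, 3 to 5 relatives and 5256 to 7139 of all genes were called. TEF turned to −0.072 with library totals, and ranged from −0.25 to 0.17 with a bear or library left out, as did NR1D1 from −0.12 to 0.39. PER2 turned to 0.054 and 0.077 with the block in edgeR and DESeq2 and to 0.12 in limma voom. For r, the smallest p possible times the 56 pair tests within a season is 0.0778, so a single pair could not pass. The number with an unadjusted p below 0.05 by r ran from 1 without bear 1305 to 11 with library totals. Of 6 bears, leaving out any of 1316, 1317, 1511 or 1512 reduced the members called to 2, DBP and RORA. Among the members, CIART (41) and RORA (43) had the fewest reads in a library.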

Other observations

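A second summer library stood apart in core clock genes. In bear 1512 in summer, PER1 was at 9.31 CPM and PER2 at 7.51 CPM, where bears 1316, 1317, 1509 and 1511 lay at 45.8 to 57.5 and 32.3 to 60.9 CPM. ARNTL was at 17.4 CPM there and at 1.24 to 4.82 CPM in those 4 bears. Bear 1305 was alike in these 3 genes (17.1, 6.70 and 16.6 CPM). The output factors of bear 1512 lay inside the range of those 4 bears, with DBP at 9.82, CIART at 8.45 and NFIL3 at 6.85 CPM, except for TEF, at 70.4 CPM below their 82.8 to 113 CPM. NR1D1 was at 43.2 and NR1D2 at 220 CPM, against 22.7 to 43.1 and 161 to 232 CPM in those 4 bears. In winter the 6 bears lay closer together in PER2, at 18.9 to 32.7 CPM. These values were singled out after they were seen and were not tested.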
